A study of Mus musculus with 20 samples.

Results

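Squamous carcinomas from mice labelled with keratinocyte deletion of Wwox and Trp53 (p53) were compared with the epidermis of young mice labelled with the same genotype. Both groups carried, per the labels, K14cre;Wwoxfl/fl;p53fl/fl, a combination called DKO here. The K14 promoter drives Cre recombinase in basal keratinocytes, so the label implies loss of both floxed genes there and in the cells that descend from them. In 2 of the 6 libraries the levels of these genes go against that label. The members are the 3 libraries labelled cSCC (cutaneous squamous cell carcinoma) and the 3 labelled young epidermis, chosen by their labels alone, and they make up 6 of the 20 libraries of the series. Young epidermis came from mice of 100 to 120 days. The tumours arose spontaneously in mice checked every week and were collected on detection, with no age given, so age cannot be told apart from tumour in this comparison. In both tissues the sequenced cells were those sorted for the tdTomato reporter, and the labels name the libraries of a group as biological replicates. Epidermis and tumours were dissociated by separate protocols, and the effect of that step cannot be told apart from the effect of tissue. The comparison addresses what differs between a carcinoma and the pre-tumour epidermis of the same labelled genotype.

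The epidermis is renewed by basal keratinocytes, which are attached to the basement membrane by integrins, divide, and then leave the basal layer, stop dividing and build the keratins and envelope proteins of the barrier. WWOX is an adaptor protein with WW domains and is counted among tumour suppressors, and p53 is the transcription factor that halts the cell cycle after DNA damage through targets such as Cdkn1a. In squamous carcinomas keratinocytes keep dividing, often switch on the keratins of wounded skin, and may lose cell junctions in the program called epithelial to mesenchymal transition (EMT).

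The targeted genes were examined first. Levels are in CPM, counts scaled to a common library size with the trimmed mean of M-values (TMM), and are listed for libraries 1, 2 and 3 of a group in that order. Wwox was at 0.444, 1.31 and 1.88 CPM in the tumours and at 0.926, 0.944 and 7.34 CPM in young DKO epidermis, against 9.35 ± 0.652 CPM (SD, n = 3) in young wild-type (WT) epidermis. Trp53 was at 2.74, 2.86 and 45.5 CPM in the tumours and 3.31, 3.27 and 21.1 CPM in young DKO epidermis, against 34.4 ± 4.95 CPM (SD, n = 3) in young WT epidermis. The library labelled DKO cSCC 3 had low Wwox with Trp53 above the WT range of 30.7 to 40.1 CPM, and the library labelled DKO young 3 had both genes well above the other 2 young libraries. Those libraries go against their genotype label for Trp53, and the second also for Wwox. The table sums all exons of a gene, so the deleted exons themselves were not measured. Between tumours and young epidermis, neither gene differed beyond the spread (exact two-sided permutation test on log2(CPM + 1), p = 0.7 for Wwox and p = 1.0 for Trp53, where 0.1 is the smallest p that 3 against 3 can give).

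**Figure D1:**
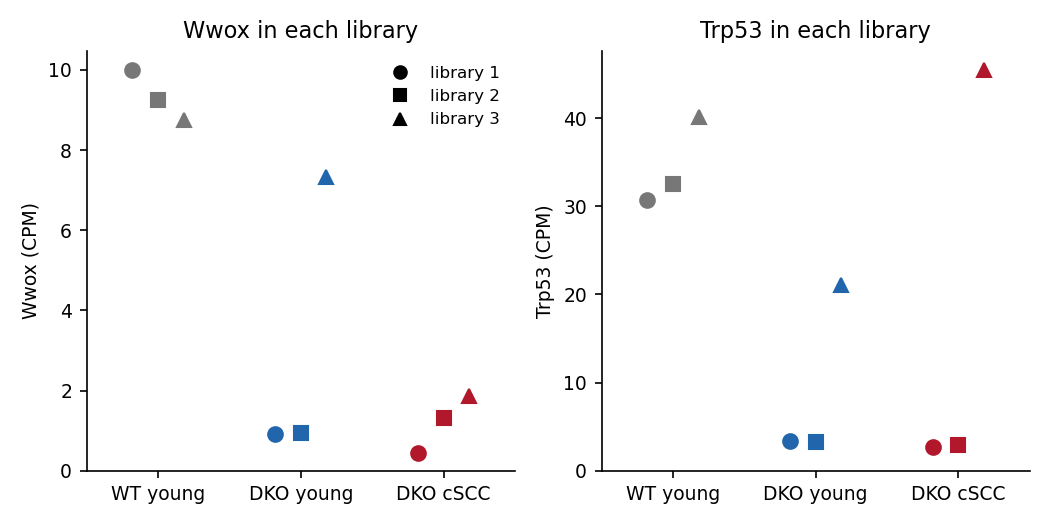
Wwox (left) and Trp53 (right) in CPM for each library of young WT epidermis, young DKO epidermis and DKO cSCC, with each marker shape standing for a library number. In library 3 of DKO young epidermis both genes lie well above libraries 1 and 2, and in library 3 of DKO cSCC only Trp53 does, at 45.5 CPM.

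Total counts were 12855983 to 17199262 per library, and 20.45% to 40.87% of a library came from mitochondrial ribosomal RNA, with overlapping groups in both. On the first principal component of log2 CPM, which held 46.8% of the variance, all 3 tumours lay on one side and all 3 young libraries on the other. The library labelled DKO cSCC 3 stood apart on the second component, which held 23.2%. Its rank correlation with the other tumours was 0.879 and 0.905, below the 0.95 between those, while tumour and young libraries correlated at 0.87 to 0.891. Xist, transcribed from the inactive X chromosome, was at 467, 13.9 and 0.0893 CPM in the tumours and 1002, 1555 and 598 CPM in young epidermis. Eif2s3y, a Y-linked gene, had CPM of 0, 26.8 and 23.8 in the tumours and no count in any young library. Summed over the tumours it was at least 212-fold higher if 3 counts over the young group are taken as the floor. DKO cSCC 1 added no count to that sum. Eif2s3y was thus counted in 2 tumours and in no young library, and the part of sex in the results was not tested.

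Of 16108 genes tested with edgeR's quasi-likelihood test, 595 (3.69%) passed an adjusted p of 0.05 (Benjamini-Hochberg over all genes), 281 (1.74%) higher and 314 (1.95%) lower in the tumours. For 5204 genes (32.3%) the 3 tumour libraries did not overlap the 3 young ones, 2426 (15.1%) of them higher and 2778 (17.2%) lower, and the median log2 fold change over all genes was 0.06. The shares of 1.74% and 1.95% apply to all counts of list members below, and a list with 1 call is not read as changed on that count. At an unadjusted p under 0.05 edgeR had 3610 of the 16108 genes. DESeq2 called 2089 and limma voom 2738 at their own adjusted p. These counts over all genes are the background for such counts of list members below. The number of calls depended on single libraries. Leaving out the library labelled DKO cSCC 1, DKO cSCC 2, DKO young 1 or DKO young 2 left 17, 5, 6 and 6 calls, and leaving out DKO cSCC 3 or DKO young 3 gave 782 and 174. Without both DKO libraries that go against their labels (hereafter the doubted libraries), 233 genes were called, 134 (0.804%) higher and 99 (0.594%) lower. Of the calls above, 80 of the 281 and 74 of the 314 were among them. That fit, like the main one, also held libraries of the p53-only model described below, which share its estimate of spread. It kept young libraries 2 and 3 of that model, whose Trp53 levels go against their label. No fit left out these and the doubted libraries together. All 281 and all 314 kept their sign without the doubted libraries. This was nearly fixed in advance, because for 278 and 314 of them the 3 tumour libraries did not overlap the 3 young ones. For a called gene, a lack of overlap is therefore no further support. Only Btg2, Tiparp, Vps37b and Mafk passed in each of the 6 fits that left out 1 DKO library, and all of them were lower in the tumours. The last 3 are outside the rule for naming genes and are given because they are so few.

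Tiparp, a mono-ADP-ribosyltransferase induced by the aryl hydrocarbon receptor, was at 36.9, 26.5 and 20.9 CPM in the tumours and 354, 269.7 and 265 CPM in young epidermis (log2 fold change -3.38, SE 0.32, adjusted p = 0.00502). Mafk, a small Maf protein that pairs with larger basic leucine zipper factors, was at 24.9, 18.6 and 20.7 and 114, 92.5 and 103 CPM in the same order (log2 fold change -2.25, SE 0.23, adjusted p = 0.00502). Vps37b, a subunit of the ESCRT-I sorting complex, was at 15, 16.2 and 12 and 49.8, 55.1 and 69.1 CPM (log2 fold change -1.99, SE 0.22, adjusted p = 0.00549). In each of these genes every tumour lay below every young library.

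**Figure D2:**
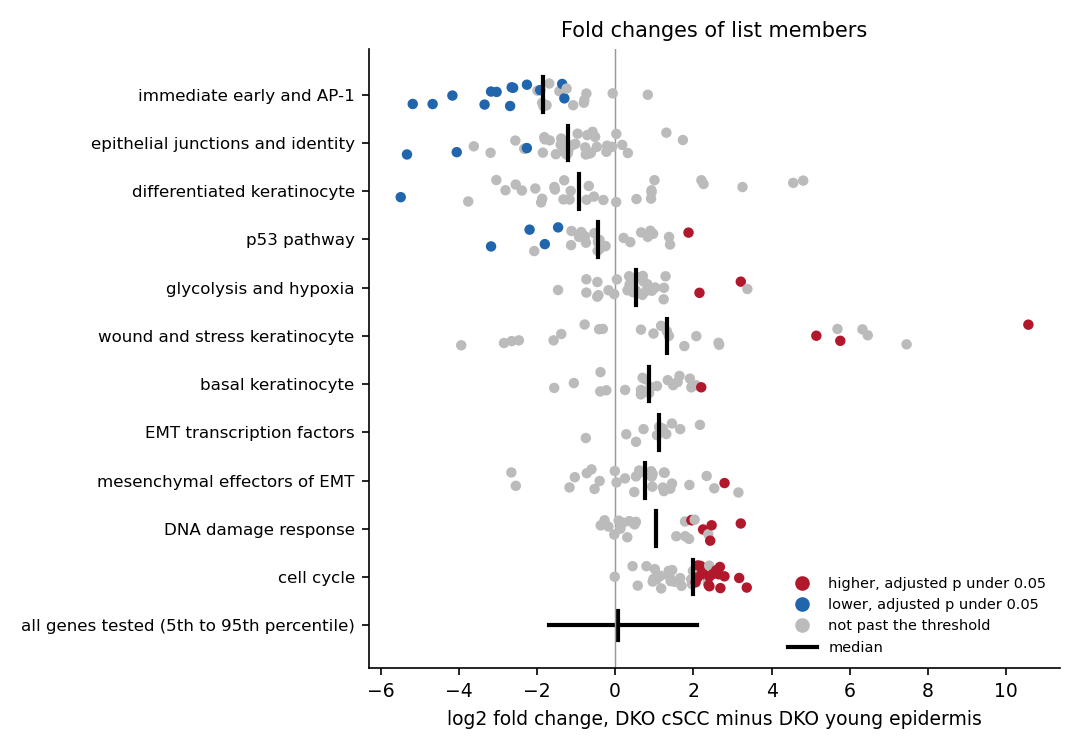
Log2 fold change of DKO cSCC against young DKO epidermis for each tested member of 11 gene lists, with the list median as a black bar and, at the bottom, the median and the range from the 5th to the 95th percentile of all genes tested. Cell cycle members lie to the right, and immediate early and junction members mostly to the left.

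Genes of mitosis were higher in the tumours. Of 40 cell cycle genes, 17 rose and none fell (1.74% and 1.95% of all genes did), with 39 positive fold changes and a median log2 fold change of 1.98. Among the 20 genes of mitosis 16 rose, the groups did not overlap for any of the 20, and the median was 2.41. Among the 20 genes of G1/S and replication 1 rose, Mcm5, with a median of 1.27. The calls of mitotic genes fell to 5 without the doubted libraries (median 2.73) and to 5 without DKO young 3. None passed when DKO cSCC 1, DKO cSCC 2, DKO young 1 or DKO young 2 was left out, with medians of 2.16 to 2.47.

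Promoters of these genes are shown because mitotic genes share sequence elements there: CCAAT boxes, bound by NF-Y, and the cell cycle homology region (CHR), whose core reads TTTGAA. The 250 bases before the transcription start of the genes below are from RefSeq (build GRCm38.p6), written 5′ to 3′ along the gene's strand, with CCAAT and TTTGAA in capitals on either strand (ATTGG and TTCAAA on the opposite one). Cdc20, Top2a, Ube2c and Ccnb2 were the called mitotic genes of smallest p with both elements in the same window. Cenpe was the first with CCAAT alone. The windows shown were thus picked for holding these elements, and Ube2c, Ccnb2 and Cenpe were chosen after their values were seen. In the order printed, the windows lie at chr4:118437344-118437593 (minus strand), chr11:99024190-99024439 (minus), chr2:164769679-164769928 (plus), chr9:70421555-70421804 (minus) and chr3:135212313-135212562 (plus).
Cdc20: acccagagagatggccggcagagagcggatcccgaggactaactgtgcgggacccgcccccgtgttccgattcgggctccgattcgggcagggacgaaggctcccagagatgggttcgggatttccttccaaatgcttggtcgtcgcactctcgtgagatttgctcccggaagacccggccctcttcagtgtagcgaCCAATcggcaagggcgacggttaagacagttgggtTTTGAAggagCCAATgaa
Top2a: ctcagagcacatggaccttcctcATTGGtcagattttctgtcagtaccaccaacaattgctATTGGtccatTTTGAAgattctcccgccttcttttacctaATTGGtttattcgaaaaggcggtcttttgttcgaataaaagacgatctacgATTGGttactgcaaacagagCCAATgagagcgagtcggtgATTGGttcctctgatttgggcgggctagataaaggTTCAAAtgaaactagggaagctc
Ube2c: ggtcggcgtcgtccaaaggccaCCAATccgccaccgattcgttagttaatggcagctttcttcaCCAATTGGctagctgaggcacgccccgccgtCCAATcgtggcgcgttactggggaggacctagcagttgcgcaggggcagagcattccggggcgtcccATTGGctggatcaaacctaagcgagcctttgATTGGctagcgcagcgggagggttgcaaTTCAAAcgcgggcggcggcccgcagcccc
Ccnb2: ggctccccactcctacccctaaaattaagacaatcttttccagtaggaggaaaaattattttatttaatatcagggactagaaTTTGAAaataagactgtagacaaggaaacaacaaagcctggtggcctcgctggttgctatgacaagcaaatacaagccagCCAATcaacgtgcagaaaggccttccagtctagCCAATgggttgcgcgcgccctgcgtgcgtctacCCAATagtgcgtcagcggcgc
Cenpe: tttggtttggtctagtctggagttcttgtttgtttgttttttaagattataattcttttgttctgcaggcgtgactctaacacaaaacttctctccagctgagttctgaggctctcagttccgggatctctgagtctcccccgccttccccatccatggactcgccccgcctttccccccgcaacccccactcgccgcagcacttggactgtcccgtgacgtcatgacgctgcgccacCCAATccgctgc

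In these windows Ube2c and Top2a each had 6 CCAAT matches, Ccnb2 had 3, Cdc20 had 2 and Cenpe had 1. TTTGAA matched 2 times in Top2a, 1 time each in Cdc20, Ube2c and Ccnb2, and not in Cenpe. The match nearest the start lay 13, 18 and 24 bases from it in Cdc20, Top2a and Ube2c. In Ccnb2 it lay 162 bases away, upstream of all CCAAT matches of that window. A RefSeq promoter was found for 15 of the 20 mitotic genes, and 14 of those (93.3%) held CCAAT on either strand, against 37.5% of the promoters of 27025 genes. Both CCAAT and TTTGAA stood in the same window of 7 of the 15 (46.7%), against 6.45% of all genes. Of the G1/S genes 16 had a promoter in the table, 10 of them (62.5%) with CCAAT and 1 (6.25%) with both. A match is a run of letters and not a bound site.

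Foxm1, the transcription factor that drives genes of G2 and mitosis, was at 33.7, 40.2 and 19.7 CPM in the tumours and 5.03, 5.52 and 7.34 CPM in young epidermis (log2 fold change 2.41, SE 0.38, adjusted p = 0.0183). Cdc20, the activator of the anaphase-promoting complex, was at 22.8, 39.6 and 17.8 CPM in the tumours and 4.57, 3.48 and 6.35 CPM in young epidermis (log2 fold change 2.50, SE 0.41, adjusted p = 0.0198). In both genes the 3 tumours lay above the 3 young libraries, and cSCC 3 was the lowest of the tumours. Tpx2, which nucleates spindle microtubules and activates Aurora A, was at 44.5, 68.7 and 40.8 against 8.47, 10.4 and 10.4 CPM (log2 fold change 2.41, SE 0.41, adjusted p = 0.0215). Kif20a, a kinesin of the central spindle, was at 21.9, 30.9 and 22.6 against 3.04, 5.37 and 6.15 CPM (log2 fold change 2.39, SE 0.42, adjusted p = 0.023). Top2a, the topoisomerase that untangles sister chromatids, was at 137, 185 and 125 against 32.4, 39.9 and 32.3 CPM (log2 fold change 2.11, SE 0.39, adjusted p = 0.0258). These 3 genes also separated the groups without overlap. Mki67, whose protein Ki-67 coats mitotic chromosomes and serves as a marker of dividing cells, was at 268, 434 and 292 CPM in the tumours and 46, 82 and 70.8 CPM in young epidermis (log2 fold change 2.34, SE 0.49, adjusted p = 0.0333). Ube2c, the ubiquitin-conjugating enzyme of the anaphase-promoting complex, had CPM of 15.7, 19.6 and 12.8 in the tumours and 2.12, 2.47 and 2.98 in young epidermis (log2 fold change 2.69, SE 0.48, adjusted p = 0.0245). Mcm5, a subunit of the replicative helicase, was at 52.7, 95.1 and 40.6 and 11.8, 18.3 and 13.8 CPM (log2 fold change 2.12, SE 0.51, adjusted p = 0.0481). In each of these genes the lowest tumour lay above the highest young library.

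**Figure D3:**
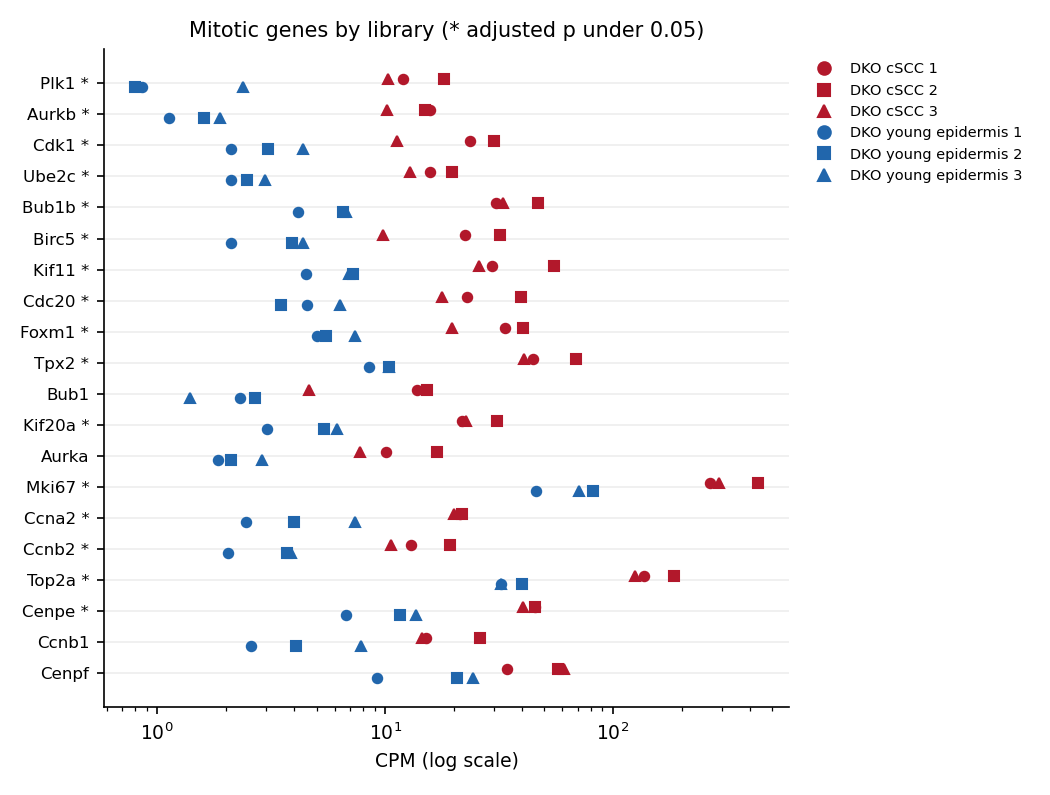
CPM on a log axis of the 20 mitotic genes in the 3 DKO cSCC libraries (red) and the 3 young DKO libraries (blue), ordered by fold change, with a star for an adjusted p under 0.05. Every red point of a gene lies to the right of its blue points.

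Of 24 DNA damage response genes, 6 rose and none fell (1.74% and 1.95% of all genes did), 20 had positive fold changes, and the median log2 fold change was 1.05. Rad51ap1, a DNA-binding factor of homologous recombination, was at 9.18, 8.66 and 5.89 CPM in the tumours and 0.529, 1.16 and 0.893 CPM in young epidermis (log2 fold change 3.21, SE 0.51, adjusted p = 0.0184). Rad54l, a motor protein of the same repair pathway, was at 7.33, 11.9 and 5 and 1.19, 1.67 and 1.69 CPM (log2 fold change 2.43, SE 0.48, adjusted p = 0.0293). Both genes separated the groups, again with cSCC 3 lowest among the tumours. Brca1, a tumour suppressor of that pathway, was at 24.1, 33.8 and 11.1 and 3.84, 5.01 and 3.77 CPM (log2 fold change 2.47, SE 0.53, adjusted p = 0.0341). By contrast the break sensor Rad50 was at 69.8, 69.8 and 42.2 against 49.8, 54.7 and 44.1 CPM (adjusted p = 0.464) and Trp53bp1, which shields broken ends, at 48.2, 41.1 and 58.5 against 57, 72.6 and 50.4 CPM (adjusted p = 0.473), with overlapping groups in both. Without the doubted libraries 1 of the 24 genes passed, and none passed without DKO cSCC 1, DKO cSCC 2, DKO young 1 or DKO young 2.

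Of 27 p53 pathway genes 1 rose and 4 fell (1.74% and 1.95% of all genes did), with a median log2 fold change of -0.44. Btg2, an antiproliferative p53 target that is also an immediate early gene, was at 67.9, 35.2 and 53.2 CPM in the tumours and 573, 472 and 380.5 CPM in young epidermis (log2 fold change -3.17, SE 0.31, adjusted p = 0.00502). The highest tumour stayed far below the lowest young library, and the fold change without the doubted libraries was -3.35 (adjusted p = 0.0243). Mdm2, the ubiquitin ligase that degrades p53, was at 33.3, 26.6 and 31.1 and 121, 97.6 and 101 CPM (log2 fold change -1.80, SE 0.32, adjusted p = 0.0245). Sesn2, a stress-induced inhibitor of mTORC1, was at 11.6, 15.2 and 19.2 and 75, 55.7 and 80.6 CPM (log2 fold change -2.19, SE 0.46, adjusted p = 0.0323). Trp53inp1, a p53-induced nuclear protein, was at 49.2, 28.5 and 41.7 and 136, 125 and 69.3 CPM (log2 fold change -1.46, SE 0.31, adjusted p = 0.0348). In these 3 genes no tumour reached the lowest young library. Cdkn1a, the cell cycle inhibitor p21, was at 36.9, 45.4 and 82.6 and 238, 193 and 265 CPM and did not pass (log2 fold change -2.07, SE 0.51, adjusted p = 0.0504). The 1 gene that rose, Ckap2, encodes a spindle protein and was at 17.5, 26.4 and 13 against 2.85, 6.1 and 6.85 CPM (log2 fold change 1.88, SE 0.44, adjusted p = 0.0442). The 2 libraries in which Trp53 was well above the other libraries of their group did not hold the highest levels of these genes throughout: DKO young 3 was the lowest young library for Btg2 and Trp53inp1 and the highest for Sesn2 and Cdkn1a, and DKO cSCC 3 was the highest tumour for Sesn2 and Cdkn1a and neither the highest nor the lowest for Btg2, Mdm2 and Trp53inp1. Without the doubted libraries 2 of the 27 genes were called, both lower. Btg2 alone was called without DKO cSCC 1, DKO cSCC 2, DKO young 1 or DKO young 2.

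Keratins of wounded skin were among the genes with the widest rises. Krt6b, a keratin of hair follicle and injured epidermis, was at 206, 289 and 225 CPM in the tumours and 0.199, 0.218 and 0 CPM in young epidermis (log2 fold change 10.57, SE 1.74, adjusted p = 0.0197). Those young values are 6 counts in all, and the ratio of summed counts was 1560 with a counting interval of 716 to 4250. Krt6a, its close relative, was at 1426, 1699 and 779.5 and 39.2, 60.4 and 11.7 CPM (log2 fold change 5.14, SE 0.86, adjusted p = 0.0203). Stfa3, a cysteine protease inhibitor of the stefin A cluster, was at 106, 299 and 10 and 4.23, 1.09 and 2.38 CPM (log2 fold change 5.76, SE 1.21, adjusted p = 0.0331). These 3 were the members called among 25 tested genes of wound and stress keratinocytes (1.74% of all genes rose), with a median of 1.32. The list went both ways, with 16 positive and 9 negative fold changes. The groups were separated upwards by 5 members and downwards by 6 (15.1% and 17.2% of all genes). Its 9 growth factors and proteases had a median of -0.78. Krt6a and Krt6b are near-identical, as are the stefin A genes, so the split of reads among copies is uncertain. S100a9, an alarmin of neutrophils and stressed keratinocytes, was at 11.9, 69.3 and 0.536 and 0.397, 0.218 and 0.397 CPM and did not pass (adjusted p = 0.0541). Krt17, which pairs with the wound keratins, was at 1656, 1292 and 1187 and 2700, 1769 and 1073 CPM, with overlapping groups (log2 fold change -0.41, SE 0.66, adjusted p = 0.762). Without the doubted libraries Krt6a and Stfa3 were called and Krt6b was not (adjusted p = 0.0583), while S100a8, the partner of S100a9 and named because it was the only other call of the list, was called (log2 fold change 6.55, adjusted p = 0.0495). No member was called without DKO cSCC 1, DKO cSCC 2, DKO young 1 or DKO young 2.

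Basal keratinocyte genes of adhesion to the basement membrane were mostly higher and suprabasal keratins lower, but few passed the test. Of 21 basal genes 1 rose (1.74% of all genes did), with 16 positive fold changes and a median of 0.87. That gene, Col7a1, encodes the collagen of the anchoring fibrils below the basement membrane, and was at 597, 473 and 420.0 CPM in the tumours and 69.3, 134 and 126 CPM in young epidermis (log2 fold change 2.20, SE 0.48, adjusted p = 0.0373). Itga5, the alpha chain of the fibronectin receptor, was at 30.7, 32.9 and 22.5 and 3.57, 4.07 and 13.3 CPM (log2 fold change 2.08, SE 0.54, adjusted p = 0.0594), and Itgb1, its beta chain, at 315, 313 and 176 and 85.9, 96.5 and 139 CPM (adjusted p = 0.0663). Both integrin chains separated the groups without passing the test. Krt14, the basal keratin whose promoter drives Cre here, was at 8641, 13590 and 6590 and 2216, 2680 and 2860 CPM (adjusted p = 0.122), and its partner Krt5 at 5707, 8165 and 4207 and 3007, 3399 and 3629 CPM (adjusted p = 0.404). Both keratins were highest in cSCC 2 and lowest in young 1. Of the 5 basal keratins and transcription factors 2 had positive and 3 negative fold changes (median -0.38). Among them 2 separated the groups upwards and 2 downwards. Of the 16 adhesion genes 14 had positive and 2 negative fold changes (median 0.99). Fewer cells of a type and less RNA per cell cannot be told apart in these bulk libraries.

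Of 30 genes of differentiated keratinocytes 1 fell (1.95% of all genes did) and 19 had negative fold changes, with a median of -0.93. Krt77, a suprabasal keratin of mouse epidermis, was at 4.44, 69.6 and 348 CPM in the tumours and 8271, 6256 and 4227 CPM in young epidermis (log2 fold change -5.48, SE 1.34, adjusted p = 0.0492). Krt10, the main suprabasal type I keratin, was at 119.6, 800.5 and 4922 and 10120, 7522 and 6267 CPM (log2 fold change -2.04, SE 1.30, adjusted p = 0.382). The library labelled DKO cSCC 3 was close to the young range while cSCC 1 was far below it. Krt80, a keratin tied to desmosomes, was at 32.6, 43.6 and 158 and 784, 590.4 and 548 CPM (adjusted p = 0.0688), and Dsg1a, a desmoglein of the upper layers, at 132, 121 and 373 and 1747, 1392 and 1239 CPM (adjusted p = 0.116). Tgm3, a transglutaminase that crosslinks the cornified envelope, ran the other way, at 133, 206 and 15.3 against 13.8, 13.1 and 10.6 CPM (adjusted p = 0.0805). Flg, the filaggrin of the granular layer, is outside the naming rule and is given for its spread: it was at 13.6, 49.5 and 4773 CPM in the tumours and 169, 21.9 and 11.6 CPM in young epidermis, so that cSCC 3 alone stood above every other library. Its log2 fold change of 4.55 became -1.09 without that tumour. The summed level of the list, 32 genes with those not tested, was 1495, 4224 and 17160 CPM in tumours 1, 2 and 3 and 28010, 21420 and 17740 CPM in the young libraries. Similar sums do not mean similar levels of each gene: in tumour 3, Krt77, Krt80 and Dsg1a were below every young library and Flg above. The list's median was -2.09 without the doubted libraries, where no member was called.

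**Figure D4:**
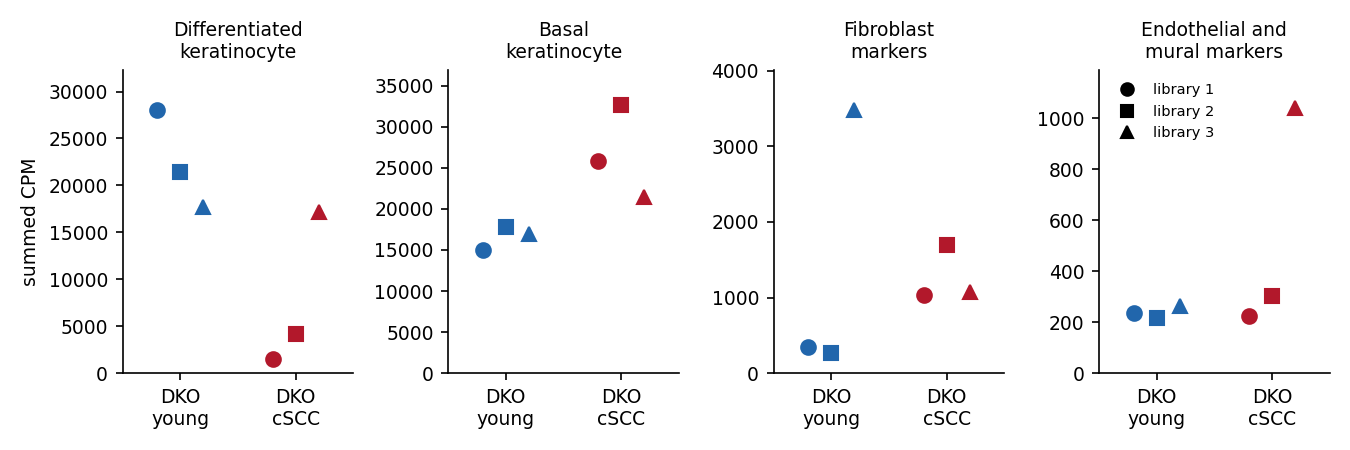
Summed CPM of differentiated keratinocyte, basal keratinocyte, fibroblast, and endothelial and mural genes in each library of young DKO epidermis and DKO cSCC, with a marker shape per library number. Library 3 of the tumours lies near the young libraries for the sum of differentiated genes, though not for each gene, and far above all others for endothelial genes. Library 3 of young epidermis is highest for fibroblast genes.

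Immediate early genes, which are transcribed within minutes of a stimulus, were lower in the tumours. Of 26 such genes 13 fell and none rose (1.95% and 1.74% of all genes did), 25 had negative fold changes, 22 separated the groups downwards (17.2% of all genes did), and the median log2 fold change was -1.85. Among the 10 subunits of AP-1 and related factors 7 fell. Fosb, a Fos family subunit of AP-1, was at 96.1, 98.7 and 122 CPM in the tumours and 2572, 2827 and 2728 CPM in young epidermis (log2 fold change -4.67, SE 0.70, adjusted p = 0.0173). Fosl1, the Fos family member Fra-1, was at 13.2, 13.8 and 1.16 and 410.2, 273 and 354 CPM (log2 fold change -5.18, SE 1.16, adjusted p = 0.0404). No tumour came near a young library in either gene. Jun, the partner of the Fos proteins, was at 856, 781 and 336 and 2563, 2578 and 1986 CPM with no overlap but did not pass (log2 fold change -1.83, SE 0.46, adjusted p = 0.0549). Nr4a2, an orphan nuclear receptor, was at 4.37, 3.02 and 5.45 and 17.6, 18.3 and 26.2 CPM (log2 fold change -2.26, SE 0.34, adjusted p = 0.0173). Zfp36, which destabilises messages with AU-rich elements, was at 134, 94.3 and 127 and 1132, 1040 and 760.2 CPM (log2 fold change -3.03, SE 0.54, adjusted p = 0.0243). Both separated the groups, and the 3 tumours were close to each other. Without the doubted libraries 5 of the 26 genes were called, and Btg2 alone passed without DKO cSCC 1, DKO cSCC 2, DKO young 1 or DKO young 2. The list is known to respond to tissue dissociation, which followed separate protocols in the 2 groups, and the contribution of that step cannot be told apart from that of the tissue.

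**Figure D5:**
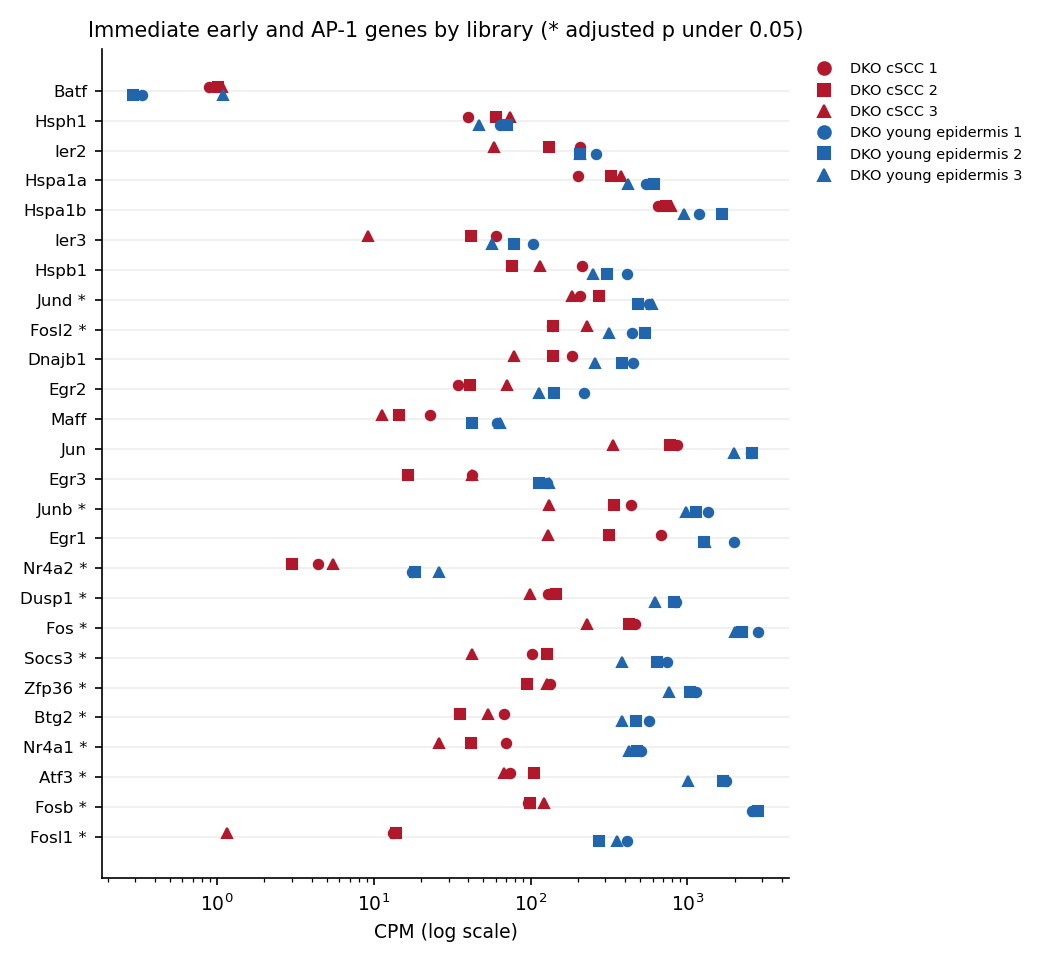
CPM on a log axis of the 26 immediate early and AP-1 genes in the 3 DKO cSCC libraries (red) and the 3 young DKO libraries (blue), ordered by fold change, with a star for an adjusted p under 0.05. Red points lie to the left of blue ones for all but the uppermost genes, and Fosl1 and Fosb at the bottom are farthest apart.

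Epithelial junction and identity genes were mostly lower. Of 39 tested, 3 fell and none rose (1.95% and 1.74% of all genes did), 34 had negative fold changes, 27 separated the groups downwards (17.2% of all genes did), and the median log2 fold change was -1.20. Cldn4, a claudin of tight junctions, was at 8.81, 11.6 and 6.78 CPM in the tumours and 439, 287 and 376 CPM in young epidermis (log2 fold change -5.32, SE 1.09, adjusted p = 0.0311). Ovol1, a zinc finger factor that restrains EMT genes and promotes differentiation, was at 20.9, 48.5 and 21.1 and 665, 392 and 454 CPM (log2 fold change -4.05, SE 0.96, adjusted p = 0.0463). Klf4, a factor of barrier formation, was at 170.3, 183 and 154 and 912, 731 and 805 CPM (log2 fold change -2.26, SE 0.35, adjusted p = 0.0183). The tumours lay below the young libraries throughout these 3 genes. Epcam, an epithelial adhesion molecule, was at 106, 114 and 140.1 and 396, 249 and 241 CPM (adjusted p = 0.055). Cdh1, the E-cadherin of adherens junctions, is outside the naming rule and was at 219, 279 and 475 and 804, 730.0 and 782 CPM, without overlap (log2 fold change -1.24, SE 0.32, adjusted p = 0.0565). The desmosomal genes Dsp and Dsc3 did not pass: Dsp, the plaque protein desmoplakin, was at 3528, 4730 and 6819 and 8676, 8262 and 6367 CPM with overlapping groups (adjusted p = 0.543), and Dsc3, a desmocollin, at 926, 769.5 and 598 and 2177, 1623 and 1562 CPM (adjusted p = 0.211). No gene of this list was called without the doubted libraries (median -1.278), nor without DKO cSCC 1, DKO cSCC 2, DKO young 1 or DKO young 2.

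None of 11 EMT transcription factors passed edgeR's test, although 10 had positive fold changes and the median was 1.12. An unadjusted p under 0.05 was reached by 2 of them, Snai2 and Sox4 (3610 of all 16108 genes reached it). DESeq2 and limma voom both called these 2 higher (971 and 1269 of all genes). Snai2, the factor Slug that represses E-cadherin, was at 70.7, 53.5 and 28.6 CPM in the tumours and 18.3, 21.5 and 16.9 CPM in young epidermis (log2 fold change 1.45, SE 0.38, adjusted p = 0.0597). Sox4, an HMG box factor, was at 164, 107 and 149 and 65.9, 73.2 and 55.7 CPM (log2 fold change 1.12, SE 0.34, adjusted p = 0.0909). All 3 tumours exceeded all 3 young libraries for both, by margins that fell short of the threshold. Zeb1, a repressor of epithelial genes given outside the naming rule, was at 2.37, 5.95 and 15.2 and 4.9, 12.1 and 22.9 CPM with overlapping groups (adjusted p = 0.768). Tcf4, a basic helix-loop-helix factor, was at 41.4, 37 and 68.3 and 30.0, 40.2 and 51.6 CPM (adjusted p = 0.574). Foxc2, a forkhead factor, was near the detection limit at 2.81, 1.08 and 0.982 and 0.331, 0.363 and 0.397 CPM (adjusted p = 0.282). Without the doubted libraries the list's median was 2.45 with no gene called.

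Of 30 mesenchymal effectors of EMT 1 rose, Tpm2 (1.74% of all genes rose), and the median was 0.77. Tpm2, an actin-binding tropomyosin, was at 159.8, 208 and 138 CPM in the tumours and 26.7, 23.2 and 23.6 CPM in young epidermis (log2 fold change 2.80, SE 0.45, adjusted p = 0.019). Cald1, another regulator of actin and myosin, was at 133, 113 and 112 and 10.7, 31.1 and 56.6 CPM (log2 fold change 1.90, SE 0.51, adjusted p = 0.0643), and Tnc, the matrix glycoprotein tenascin C, at 249.7, 290.0 and 90.6 and 38.8, 69.5 and 17.6 CPM (adjusted p = 0.0696). The 3 genes separated the groups. Vim, the intermediate filament of mesenchymal cells given outside the naming rule, was at 70.7, 167 and 979.8 and 67, 80.2 and 379 CPM, highest in the library labelled DKO cSCC 3 (adjusted p = 0.67). Col3a1, a fibrillar collagen, was at 186, 245 and 165 CPM in the tumours and 8.07, 0.0726 and 1369 CPM in young epidermis, where library 3 exceeded every tumour (log2 fold change -1.17, SE 1.99, adjusted p = 0.777). Without DKO young 3 the log2 fold change of Col3a1 was 5.59 and that of Vim without DKO cSCC 3 was -0.52. The list's median was 2.42 without the doubted libraries, with no member called, and 2.34 without DKO young 3. The summed level of 15 fibroblast markers was 1038, 1695 and 1068 CPM in the tumours and 341, 270 and 3480 CPM in young epidermis. None of those 15 was called by edgeR, and 1 was by DESeq2 and by limma voom (1 at an unadjusted p under 0.05). Over all 16108 genes, DESeq2 called 2089 and limma voom 2738, and 3610 had an unadjusted p under 0.05. Dpt, a dermal matrix protein, was at 2.07, 5.1 and 2.05 CPM in the tumours and 0.662, 0 and 69.7 CPM in young epidermis, a log2 fold change of -2.88 that became 3.15 without DKO young 3. Fbln1, a fibulin of matrix and basement membranes, was at 67.6, 96.4 and 49.3 and 6.82, 8.71 and 27.3 CPM (log2 fold change 2.35, SE 0.61, adjusted p = 0.0575). The fibroblast markers at 0 were Mfap5 in young library 1 and Lum, Pdgfrb and Dpt in young library 2. Their part in the mesenchymal result was not tested.

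Among 17 matrix proteases and plasminogen activators tested 1 rose (1.74% of all genes did). Mmp13, a collagenase, was at 118, 72.3 and 1.16 CPM in the tumours and 0, 0.145 and 0.298 CPM in young epidermis (log2 fold change 8.85, SE 1.74, adjusted p = 0.0293). The young libraries held 5 counts in all, and cSCC 3 lay far below the other tumours. Mmp10, a stromelysin, was at 9.85, 4.18 and 0.178 and 0, 0.145 and 0.0993 CPM (adjusted p = 0.0893). Serpinb2, an inhibitor of plasminogen activators, was at 17.8, 26.3 and 14.2 and 272, 213 and 420.4 CPM (log2 fold change -3.94, SE 1.13, adjusted p = 0.0789). It separated the groups downwards.

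Of 31 genes of glycolysis and the hypoxia response 2 rose (1.74% of all genes did) and 23 had positive fold changes, with a median of 0.53. Slc16a3, the lactate exporter MCT4, was at 52.2, 57.5 and 6.52 CPM in the tumours and 2.18, 6.24 and 4.37 CPM in young epidermis (log2 fold change 3.21, SE 0.70, adjusted p = 0.0366). Car12, a carbonic anhydrase of the cell surface, was at 203, 199 and 112 and 45.5, 48.3 and 22.7 CPM (log2 fold change 2.15, SE 0.51, adjusted p = 0.0463). Slc16a3 in cSCC 3 was just above the highest young library, whereas Car12 left a wide gap. Pkm, the pyruvate kinase of the last glycolytic step, was at 715, 1149 and 488 and 372, 365 and 269 CPM (log2 fold change 1.24, SE 0.31, adjusted p = 0.0504), and Gapdh at 619.7, 879 and 341 and 282, 233 and 269 CPM (adjusted p = 0.0748). Of 21 NRF2 and glutathione genes 1 rose and 1 fell (1.74% and 1.95% of all genes did). Akr1b8, an aldo-keto reductase, was at 22.7, 36.5 and 5.8 and 2.38, 2.47 and 3.97 CPM (log2 fold change 2.91, SE 0.60, adjusted p = 0.0312), and Akr1c18, a hydroxysteroid dehydrogenase of the same superfamily, at 3.41, 7.73 and 1.34 and 89.5, 34.3 and 135 CPM (log2 fold change -4.34, SE 0.77, adjusted p = 0.024). Both separated the groups, in opposite directions. Gpx2, a glutathione peroxidase, was at 12.2, 11.5 and 8.03 and 0.992, 1.38 and 0.496 CPM (log2 fold change 3.45, SE 0.87, adjusted p = 0.0543).

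Among 23 squamous carcinoma drivers and stemness genes 1 rose and 1 fell (1.74% and 1.95% of all genes did). Fscn1, which bundles actin in protrusions, was at 54.5, 75.3 and 25.2 CPM in the tumours and 4.57, 7.55 and 15.6 CPM in young epidermis (log2 fold change 2.52, SE 0.57, adjusted p = 0.0408). Myc, a transcription factor of growth and division, fell, at 67.3, 101 and 48.4 against 384, 286 and 208 CPM (log2 fold change -2.01, SE 0.49, adjusted p = 0.0492). No tumour reached the young range of Myc. Cdkn2a, the locus of the tumour suppressors p16 and p19Arf, was at 134, 55.8 and 0.625 CPM in the tumours and 2.91, 2.32 and 0.298 CPM in young epidermis (log2 fold change 5.09, SE 1.31, adjusted p = 0.0575). Tumours 1 and 2 lay far above young epidermis, while the library labelled DKO cSCC 3 lay within the young range, and without the doubted libraries the log2 fold change was 5.17 (adjusted p = 0.0243). Procr, a receptor that marks progenitors in several epithelia, was at 19, 15.7 and 3.12 and 0.662, 0.508 and 2.58 CPM (log2 fold change 3.40, SE 0.89, adjusted p = 0.0597). Cd44, an adhesion receptor used as a stemness marker, was at 303, 393 and 318 and 538, 501 and 306 CPM with overlapping groups (adjusted p = 0.561), and Fat1, an atypical cadherin, at 631, 417 and 338 and 286, 324 and 274 CPM (adjusted p = 0.25).

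No gene of the EGF receptor (19 tested), Notch (15), Wnt (23), TGF-beta (20) or YAP and TAZ (14) lists passed the test. Medians were -0.78, 0.15, 0.72, -0.04 and -0.04 in that order. Notch4, a Notch receptor outside the Notch list, did pass (log2 fold change 4.16, adjusted p = 0.0404) and is described below with the widest rises. At an unadjusted p under 0.05 edgeR had 8, 5, 3, 6 and 3 genes of these lists, DESeq2 called 4, 2, 1, 4 and 2, and limma voom called 6, 9, 2, 5 and 3. Over all 16108 genes these counts were 3610, 2089 and 2738. Areg, an EGF receptor ligand, was at 14.6, 15.4 and 1.16 CPM in the tumours and 91.3, 42 and 65.3 CPM in young epidermis, and Egfr itself at 223, 107 and 114 and 161, 161 and 172 CPM. Areg separated the groups and Egfr did not, neither with an adjusted p under 0.05 (0.104 and 0.853). Dusp5, a feedback phosphatase of ERK, was at 8.81, 12.4 and 13.7 and 49.3, 20.1 and 48.1 CPM (log2 fold change -1.74, SE 0.43, adjusted p = 0.0505). Among receptors of the other pathways, Notch2 was at 104, 80.7 and 137 and 279, 287 and 199 CPM (adjusted p = 0.0875). Dkk3, a secreted protein of the Dickkopf family, was at 30.9, 41.1 and 29.5 and 9.73, 9.07 and 12.5 CPM (adjusted p = 0.0594). Both had groups without overlap, the receptor lower and Dkk3 higher in tumours. Tgfb1, a ligand of the TGF-beta receptors, was at 58.1, 35 and 38.5 and 13.5, 17.5 and 20.1 CPM (adjusted p = 0.123), and Tead4, the DNA-binding partner of YAP, at 11.8, 10.3 and 6.52 and 2.25, 2.4 and 2.38 CPM (adjusted p = 0.0568).

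Of the immune response lists, 2 of 29 interferon-stimulated genes fell and none rose (1.95% and 1.74% of all genes did), against a positive list median of 0.62. Irf1, an interferon-induced transcription factor, was at 54, 61.8 and 19.5 CPM in the tumours and 508, 460.2 and 202 CPM in young epidermis (log2 fold change -3.10, SE 0.48, adjusted p = 0.0183). Irf9, the DNA-binding subunit of ISGF3, was at 20.2, 34.2 and 19.1 and 59.5, 48.9 and 46 CPM (log2 fold change -1.06, SE 0.26, adjusted p = 0.0492). Both separated the groups. None of 14 MHC class I presentation genes passed and 13 had negative fold changes (median -0.55). Of them 5 had an unadjusted p under 0.05 (3610 of all 16108 genes did). DESeq2 and limma voom each called 3 lower (1118 and 1469 of all genes). B2m, the light chain of class I, was at 393, 435 and 281 and 702, 515 and 661 CPM (adjusted p = 0.101). Of 25 cytokines and chemokines 1 fell, Cx3cl1, the membrane-bound chemokine fractalkine, at 7.92, 8.66 and 7.41 against 36.6, 28.4 and 23.4 CPM (log2 fold change -1.87, SE 0.43, adjusted p = 0.0418). Il1b, an inflammatory interleukin, was at 11.6, 11.5 and 13.5 and 0.397, 0.508 and 0.794 CPM, without overlap (log2 fold change 4.45, SE 1.22, adjusted p = 0.0687).

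Markers of other cell types were present in the sorted cells and differed between libraries. The 23 markers of T and NK cells (22 tested), which include dendritic epidermal T cells, summed to 50.2, 117 and 149 CPM in the tumours and 151, 239 and 466 CPM in young epidermis. Of the 22 tested, 18 had negative fold changes, with a median of -1.90. The groups were separated downwards by 10 and upwards by 1 (17.2% and 15.1% of all genes). Of these markers 1 was called, lower in the tumours (1.95% of all genes fell). That gene, Il2rb, a chain of the receptors of interleukin 2 and 15, was at 2, 1.78 and 2.23 against 12.3, 22.8 and 29.9 CPM (log2 fold change -3.41, SE 0.66, adjusted p = 0.0282). Ptprc, the pan-leukocyte marker CD45, was at 8.07, 15.4 and 43.7 and 10.2, 27.9 and 48.9 CPM (adjusted p = 0.87). Il2rb separated the groups, and Ptprc did not. The 18 markers of macrophages, monocytes and neutrophils (16 tested) summed to 91.6, 140 and 499 CPM in the tumours and 35.3, 43.6 and 198 CPM in young epidermis. None was called by edgeR (2 at an unadjusted p under 0.05), against 1 by DESeq2 and 2 by limma voom. Over all 16108 genes, 3610 had an unadjusted p under 0.05, and DESeq2 called 2089 and limma voom 2738. Fcgr1, the high-affinity IgG receptor, was at 0.815, 0.773 and 2.95 CPM in the tumours and had no count in young epidermis, so that the tumours were at least 18.6-fold higher at the same floor (adjusted p = 0.0524). The 14 Langerhans and dendritic cell markers (13 tested) summed to 193, 711 and 2639 CPM in the tumours and 232, 267 and 676 CPM in young epidermis, with none called by edgeR (2 at an unadjusted p under 0.05) and 1 by DESeq2. The part of these cells in the other results was not tested.

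Endothelial and mural markers (17 tested) summed to 225, 304 and 1040 CPM in the tumours and 236, 215 and 266 CPM in young epidermis. Their median log2 fold change was 4.57, and 1 gene was called, higher in the tumours (1.74% of all genes rose). The groups were separated upwards by 10 of the 17 and downwards by 1 (15.1% and 17.2% of all genes). Egfl7, a secreted factor of endothelial cells, was at 4.3, 5.18 and 23 CPM in the tumours and 0.199, 0.0726 and 0.893 CPM in young epidermis (log2 fold change 4.85, SE 1.16, adjusted p = 0.047). Rgs5, a marker of pericytes, was at 15.7, 62.4 and 67.5 and 0.397, 0.218 and 4.86 CPM (adjusted p = 0.0648), and Esam, an endothelial adhesion molecule, at 1.04, 2.86 and 22.9 and 0.0662, 0.29 and 0.794 CPM (adjusted p = 0.0656). The 3 genes separated the groups and reached their highest level in the library labelled DKO cSCC 3. No marker was called without that library, and the median was then 2.40. Melanocyte and Schwann cell markers also peaked there, with summed levels of 37.3, 31.0 and 741 CPM in the tumours and 44.2, 76.7 and 128 CPM in young epidermis. Dct, a melanin synthesis enzyme, was at 7.48, 4.72 and 274 and 3.37, 8.71 and 46.2 CPM, with a log2 fold change of 2.31 that became -1.61 without DKO cSCC 3 (adjusted p = 0.438 with it). The 12 muscle and adipocyte markers (3 tested) summed to 3.48, 7.35 and 79.7 CPM in the tumours and 2.85, 1.82 and 20.4 CPM in young epidermis. No marker of either list was called by edgeR (1 and 0 at an unadjusted p under 0.05) or DESeq2, and limma voom called 0 and 1.

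Among 24 hair follicle genes 1 fell (1.95% of all genes did), and the median was -0.02. Gata3, a regulator of the inner root sheath and of epidermal differentiation, was at 103, 89.1 and 133 CPM in the tumours and 444, 432 and 323 CPM in young epidermis (log2 fold change -1.87, SE 0.35, adjusted p = 0.0261). Tbx1, a factor of follicle stem cells, was at 35.3, 22 and 52.7 and 4.63, 10.4 and 5.16 CPM without overlap (log2 fold change 2.46, SE 0.63, adjusted p = 0.0574). Of 16 clock genes 1 fell (1.95% of all genes did) and 14 had negative fold changes (median -0.88). Hlf, a clock output factor, was at 26.4, 29.8 and 23.7 and 120.4, 88.7 and 56.7 CPM (log2 fold change -1.72, SE 0.37, adjusted p = 0.0339), and Cry2, a repressor of the clock, at 21.7, 23 and 24.6 and 46.3, 57.8 and 55.4 CPM (adjusted p = 0.062). Both lay lower in every tumour, and the hour of collection was not analysed here. None of 30 barrier and sebaceous lipid genes and none of 18 cholesterol synthesis genes was called by edgeR. An unadjusted p under 0.05 was reached by 5 and 2 of them (3610 of all 16108 genes). DESeq2 called 2 and 0 (2089 of all genes) and limma voom 8 and 1 (2738 of all genes). Among them Abca12, the lipid transporter of lamellar bodies, was at 21.6, 43.1 and 60.5 and 296, 271 and 184 CPM (adjusted p = 0.119). Scd1, a fatty acid desaturase of sebocytes, was at 94.6, 158 and 1210 and 542, 262 and 409 CPM, highest in the library labelled DKO cSCC 3 (log2 fold change 0.26, SE 0.80, adjusted p = 0.883). Its log2 fold change was -1.66 without that library.

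Among the 12 genes with the widest rises, 7 have not been described. Slfn4, a Schlafen protein of myeloid cells, was at 2.15, 13.4 and 3.84 CPM in the tumours and had no count in young epidermis, so that the tumours were at least 84.9-fold higher at that floor (adjusted p = 0.0488). Cdhr1, a protocadherin known from photoreceptors, was at 16.4, 61.9 and 5.27 CPM in the tumours and 0.529, 0.508 and 0.199 CPM in young epidermis (log2 fold change 6.02, SE 1.05, adjusted p = 0.023). Car2, a cytosolic carbonic anhydrase, was at 15.8, 40.8 and 4.46 and 0.265, 0.0726 and 0.794 CPM (log2 fold change 5.83, SE 1.33, adjusted p = 0.0409). In these genes tumour 2 was the highest library. Kcnh1, a voltage-gated potassium channel, was at 16, 77.1 and 16.9 and 1.99, 1.81 and 1.79 CPM (log2 fold change 4.30, SE 0.80, adjusted p = 0.0261). Itga1, an integrin chain that binds collagen, was at 125, 39.5 and 15.4 and 3.44, 2.54 and 4.47 CPM (log2 fold change 4.15, SE 0.80, adjusted p = 0.0282), and Notch4, a Notch receptor of endothelium, at 2.96, 6.11 and 11.2 and 0.199, 0.435 and 0.496 CPM (log2 fold change 4.16, SE 0.94, adjusted p = 0.0404). Kcnh1 was nearly equal across young libraries, and Notch4 was highest in the tumour with the highest endothelial markers. Kdm5d, a Y-linked histone demethylase, was also among the 12, at 1.41, 15.3 and 21.6 and 0.728, 1.09 and 0.397 CPM (log2 fold change 4.08, SE 0.81, adjusted p = 0.0293), and follows the sex-linked genes described above.

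The widest falls included genes near 0 in the tumours. Csn3, the casein kappa of milk, was at 0.0741, 0 and 0.0893 CPM in the tumours and 14.4, 3.56 and 6.35 CPM in young epidermis. The tumours held 2 counts, and the ratio of summed counts was 160 in favour of young epidermis with a counting interval of 43.9 to 1330 (adjusted p = 0.0194). Pyy, a gut peptide hormone, was at 0, 0.541 and 0 and 22.3, 20.8 and 5.46 CPM (log2 fold change -6.39, SE 1.27, adjusted p = 0.0293). Clca1, a secreted regulator of chloride channels, was at 0, 0.0773 and 0.357 and 19.2, 10.6 and 5.96 CPM (log2 fold change -6.35, SE 1.278, adjusted p = 0.0299), and Serpina3j, a member of a cluster of near-identical serine protease inhibitors, at 0, 0 and 0.446 and 19.1, 9.65 and 7.25 CPM (log2 fold change -6.34, SE 1.53, adjusted p = 0.0484). For each, the young libraries stood clear of tumours holding at most 7 counts together. Lama1, a laminin alpha chain of basement membranes, was at 0.37, 0.464 and 1.25 and 36.6, 33.9 and 22.4 CPM (log2 fold change -5.48, SE 1.08, adjusted p = 0.0293). Pglyrp4, a peptidoglycan recognition protein of skin, was at 0.0741, 0.773 and 0.536 and 22.6, 12.6 and 14.3 CPM (log2 fold change -5.14, SE 1.05, adjusted p = 0.0311). Skint10, of a family that includes the selecting element of dendritic epidermal T cells, was at 0.296, 0.619 and 2.86 and 47.6, 37 and 40.1 CPM (log2 fold change -5.06, SE 1.02, adjusted p = 0.0302). Tgm7, a transglutaminase, was at 0.0741, 0.155 and 0.625 and 9.26, 10.7 and 8.63 CPM (log2 fold change -5.06, SE 1.15, adjusted p = 0.0409). For these 4 genes, too, every young library exceeded every tumour, which the rule for naming the widest changes required.

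The p53-only model gave a second tumour comparison on other animals: 3 cSCC and 3 young epidermis libraries labelled K14cre;p53fl/fl (PKO). Eif2s3y was at 25.6, 20.4 and 20 CPM in the PKO tumours and at 0.123, 0 and 0 CPM in young PKO epidermis. Xist was at 0.146, 0 and 1.5 CPM and at 385, 601 and 322 CPM in the same order. Both genes separated the PKO groups, so sex cannot be told apart from tumour in that comparison. The libraries labelled PKO young 2 and 3 had Trp53 at 21.78 and 19.23 CPM, against 5.905 CPM in PKO young 1, and so go against their label too. The library labelled PKO young 3 also stood apart in other markers. Its T and NK cell markers summed to 5007 CPM, against 1035 and 387.9 CPM in PKO young 1 and 2 and 27.4 to 79.8 CPM in the PKO tumours. Its basal keratinocyte genes summed to 5124 CPM, against 20090 and 18590 CPM in those young libraries, and its erythrocyte markers to 220.3 against 15.7 and 17.7 CPM. The part of these cells in the PKO results was not tested. In PKO 959 genes passed (5.95%), 402 higher (2.5%) and 557 lower (3.46%). Without PKO young 3 there were 487 calls (164 higher, 323 lower) and without PKO young 2 there were 372 (71 and 301). With all 12 libraries DESeq2 called 2584 genes in PKO and limma voom 349. The 2 comparisons share no samples but share the fit and its estimate of spread. Of the 281 genes that rose in DKO tumours 119 also rose in PKO (42.3% of the DKO list and 29.6% of the PKO list), and of the 314 that fell 116 also fell (36.9% and 20.8%). Without PKO young 3 the shared calls were 71 and 114, and without PKO young 2 they were 32 and 54. Mitotic genes had a median log2 fold change of 1.96 in PKO with 11 of 20 called, and Foxm1 of 1.99 (adjusted p = 0.0208). Immediate early genes had a median of -1.83 with 13 of 26 called, and there too dissociation protocol and tissue cannot be told apart. Glycolysis and hypoxia genes had a median of 1.44 in PKO with 16 of 31 called, against 0.53 and 2 in DKO, and the hair follicle list -1.91 with 8 of 24 lower, against -0.02 and 1. Without PKO young 3 these PKO calls were 8 mitotic, 9 immediate early, 9 glycolysis and hypoxia and 4 hair follicle genes (medians 2.21, -1.80, 1.45 and -1.96). Without PKO young 2 they were 2, 7, 7 and 5 (medians 1.75, -1.70, 1.29 and -2.02). Whether these lists differ between the genotypes was not tested.

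The difference between the DKO and PKO tumour effects was tested as an interaction. No gene passed in edgeR's quasi-likelihood test (0% of 16108, 1551 at an unadjusted p under 0.05, smallest adjusted p 0.386), while DESeq2 called 316. Without PKO young 2 edgeR called 2, Gm4737 and Rpl34-ps1, a predicted gene and a pseudogene outside the naming rule, whose reads may be shared with near-identical copies. The genes with the smallest p in each direction are therefore given as values. Cxcl12, the chemokine ligand of CXCR4, was at 64.7, 16.9 and 56.1 CPM in DKO tumours and 9.92, 14.5 and 20.4 CPM in young DKO epidermis, and at 2.26, 4.41 and 3.92 CPM in PKO tumours and 20.8, 15.8 and 26.2 CPM in young PKO epidermis. Its tumour effect differed by 4.20 on the log2 scale (SE 0.70, adjusted p = 0.386), with 2 of 3 DKO tumours above and 3 of 3 PKO tumours below all of their young libraries. Cst6, the inhibitor cystatin E/M of the cornified layer, was at 129, 129 and 376 and 177, 43.3 and 95.6 CPM in DKO and at 2.63, 2.84 and 7.78 and 92.5, 88.5 and 33.1 CPM in PKO, a difference of 4.98 (SE 0.95). The inner root sheath keratins Krt25 and Krt28 differed by 5.54 (SE 1.11) and 7.23 (SE 1.45), and Rassf5, a Ras effector of lymphoid adhesion, by 2.97 (SE 0.61). These 5 genes had lower levels in PKO tumours than in young PKO epidermis. In the other direction Birc3, an inhibitor of apoptosis induced by NF-kB, fell in DKO tumours from 85, 79.1 and 47.5 CPM to 17.1, 26.1 and 19.3 CPM (log2 fold change -1.75, SE 0.25, adjusted p = 0.0168) and was at 34.3, 35.5 and 28.9 CPM in PKO tumours and 32.3, 33.5 and 25.5 CPM in young PKO epidermis. Its difference was -1.87 (SE 0.35, adjusted p = 0.386). Mtmr1, a phosphoinositide phosphatase, fell from 48.7, 40.1 and 36.1 to 16, 18.6 and 18.1 CPM in DKO (log2 fold change -1.23, SE 0.18, adjusted p = 0.0167), with a difference of -1.06 (SE 0.25). Naa15, the scaffold of an N-terminal acetyltransferase, Mapk1ip1l and the chaperone Hspa4l differed by -1.30, -0.98 and -1.73. No effect on these named genes is thereby shown to differ between the genotypes.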

How the data were processed

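RNA of sorted tdTomato-positive cells was sequenced, per the labels' protocols, from 5 ng (SMARTer Stranded Pico v3). Salmon 0.13.1, DESeq2 1.28.1, FastQC 0.11.5, Trim Galore 0.4.1 and build mm39 are named, without their roles, in the submitters' processing notes. The authors deposited expected counts (estimated counts, already whole) for 51123 Ensembl genes in 20 libraries. The annotation release, and whether molecular identifiers were used, are not given in the sources used here. Symbols were found for 48246 genes in a GENCODE annotation of GRCm38, used for names only. Identifiers without one took 4.085% to 12.04% of the 6 libraries and stayed in the tests.

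edgeR 4.0.16 (R 4.3.3) was run with TMM scaling, filterByExpr and the quasi-likelihood test on 12 libraries (DKO and PKO, cSCC and young), which share the estimate of spread. p-values were adjusted by Benjamini-Hochberg over all genes. CPM use TMM factors of all 20 libraries. The p-values measure the spread between libraries labelled biological replicates. Counting intervals (95%, exact) and floors (3 counts) cover counting error only. The script was tested on simulated data.

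The members and the 34 gene lists were chosen with earlier results of these data known. Named genes are the 12 largest changes each way (adjusted p under 0.05, no overlap, at least 5 CPM in the higher group), up to 4 members of each list by p and 2 by level, Wwox, Trp53, Xist and Eif2s3y, and 5 each way for the interaction. Of the list members 2 symbols were not matched. Some genes that the rule names are not reported here.

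Alternatives were fits of 6 or of 20 libraries, TMMwsp or relative log expression (RLE) scaling, no low-count filter or a minimum of 10 CPM in 3 libraries, DESeq2 1.42.0, limma voom 3.58.1 with quality weights, a test against a log2 fold change of 1, a robust prior, the replicate number as a block, CPM in place of log2(CPM + 1), and each DKO library or both doubted libraries left out. Removing PKO young 2, PKO young 3, or mitochondrial genes before scaling, was added after seeing the data. Replicate numbers are not stated to pair animals. Promoters were searched for exact letters in 250 bases on both strands. Left out were the libraries of other groups, apart from young WT levels of the targeted genes and their use in scaling.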

Additional observations from a re-analysis of the deposited data

How the results depend on the processing

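The 595 calls became 1191 with only the 6 libraries in the fit (499 higher, 692 lower), 1326 with all 20 (594 and 732), 899 without a low-count filter (477 and 422), 2089 with DESeq2 (971 and 1118), 2738 with limma voom (1269 and 1469), 3 in the test against a log2 fold change of 1 (0 and 3) and 233 without the doubted libraries (134 and 99). With 1 DKO library left out, calls ranged from 5 to 782, higher ones from 0 to 489 and lower ones from 4 to 293, and without PKO young 3 there were 834 (371 and 463). The share of calls that were higher was 47.2%, 62.5% without DKO cSCC 3, 57.5% without the doubted libraries, 53.1% without a filter, 41.2% without DKO cSCC 1, 37.4% without DKO young 3, 20% without DKO cSCC 2 and 0% without DKO young 1, without DKO young 2 and against a log2 fold change of 1. The other scalings, the robust prior, the 10 CPM minimum and the 3 alternatives added after seeing the data gave counts within 1.5 times. The interaction gave 48 calls without a low-count filter and 316 with DESeq2, 2 without PKO young 2, and 0 in the other fits run.

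With the replicate number as a block 95 genes were called (42 higher, 53 lower), 91 of them shared with the fit without it. Same-numbered tumour and young libraries correlated in their deviations from the group means at -0.0231, -0.0837 and -0.00974, so the libraries share only a number and no pairing was read from it.

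For 151 genes named in the text, 2310 of 3147 values under an alternative kept direction and side of the threshold, 579 kept the direction and lost the call, 222 gained a call and 36 changed sign. Most sign changes came with the 2 doubted libraries. Without both, the log2 fold change was 5.71 for Col3a1, 6.07 for Lum, 3.36 for Dpt, 3.61 for Mfap5, -1.61 for Flg, -1.68 for Scd1, -0.25 for Trp53, 0.024 for Egfr and -0.0050 for Dct. With limma voom it was 5.14 for Col3a1, 3.45 for Lum, 2.05 for Dpt, 1.47 for Mfap5, -1.16 for Scd1 and -0.23 for Trp53, and under the block 0.52 for Col3a1. Over the fits that left out 1 library it ran from -1.75 to 5.59 for Col3a1, from -3.13 to 5.76 for Lum, from -3.47 to 3.15 for Dpt, from -3.29 to 3.47 for Mfap5 and from -1.74 to 0.36 for Wwox, with the high end without DKO young 3. It ran from -1.61 to 3.96 for Dct, from -1.09 to 6.58 for Flg, from -1.66 to 0.74 for Scd1, from -1.67 to 2.35 for Trp53 and from -0.52 to 2.44 for Vim, with the low end without DKO cSCC 3. For the others it ran from -1.27 to 0.23 for Ptprc, from -0.57 to 0.062 for Egfr, from -0.86 to 0.39 for Krt28, from -0.014 to 0.48 for Tcf4, from -0.43 to 0.019 for Hspa4l and from -0.015 to 0.24 for Rassf5. None of these genes was called in the fit of the report, and the cause was not tested. Fold changes of genes with few counts in 1 group, such as Krt6b, Mmp13 and Csn3, rest on those counts.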

Other observations

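Beyond the gene lists, the replication-dependent histone genes, which are transcribed in S phase and packaged with newly made DNA, were higher in the tumours. They were chosen after their values were seen. Of 63 genes of the clustered histone loci that were tested, 36 rose and none fell (1.74% and 1.95% of all genes did), 61 had positive fold changes, and the median log2 fold change was 2.45. All 5 genes of the linker histone H1 rose, with 7 of 18 of H2A, 9 of 16 of H2B, 7 of 11 of H3 and 8 of 13 of H4. Their summed level was 3428, 4838 and 2806 CPM in the tumours and 623.3, 698.5 and 1119 CPM in young epidermis, without overlap. In PKO tumours the median was 1.33 with 4 genes called. Without the doubted libraries 13 genes of the 63 were called (median 2.89), and without DKO cSCC 1, DKO cSCC 2, DKO young 1 or DKO young 2 between 0 and 2 were. These genes are near-identical copies, so the split of reads among them is uncertain.

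The genes of this paragraph were also chosen after their values were seen, 3 of them because they encode regulators of NF-kB signalling, so their values describe single genes and not a group. Tnfaip3, the ubiquitin-editing enzyme A20, was at 52, 49.9 and 60.9 CPM in the tumours and 1300, 1141 and 943 CPM in young epidermis (log2 fold change -4.37, SE 0.56, adjusted p = 0.0129). Nfkbia, which holds NF-kB in the cytoplasm, was at 263, 298 and 117 and 1376, 1629 and 1082 CPM (log2 fold change -2.57, SE 0.47, adjusted p = 0.0257), and Nfkbiz, a nuclear relative, at 67.8, 78.4 and 61.3 and 514, 508 and 380.4 CPM (log2 fold change -2.74, SE 0.51, adjusted p = 0.0258). All 3 separated the groups, as did Birc3. Of 15 Krüppel-like factors tested, 6 fell (1.95% of all genes did) and 12 had negative fold changes, with a median of -1.35. None of the 15 was called without the doubted libraries (median -1.278), or without DKO cSCC 1, DKO cSCC 2, DKO young 1 or DKO young 2, and 2 and 1 were without DKO cSCC 3 and without DKO young 3. At an unadjusted p under 0.05 edgeR had 8 of them without the doubted libraries (3799 of all 16671 genes). With all libraries DESeq2 called 7 and limma voom 9 (2089 and 2738 of all 16108 genes). Beside Klf4 the 6 that fell were Klf6 at 91.9, 80.0 and 97.6 against 659, 489 and 532 CPM, Klf3 at 62.6, 77.6 and 89.9 against 534, 529.8 and 326 CPM, and Klf11, Klf8 and Klf16. Nr4a3, an immediate early nuclear receptor, was at 12.8, 14 and 14.2 and 129.7, 146 and 151 CPM (log2 fold change -3.36, SE 0.36, adjusted p = 0.00549). Dissociation protocol and tissue cannot be told apart for the genes of this paragraph either.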
